A study of Mus musculus with 8 samples.

Results

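Phosphoinositide 3-kinase (PI3K) signalling and the FOXO and FOXP transcription factors were compared between germinal centre (GC) B cells sorted as positive or negative for MYC. The 9 genes, of 18193 with a probe set of their own on the array, were Pik3r1, Pik3cd, Pik3cg and Akt1 on the kinase side, Inpp5d and Pik3ip1 as brakes, and Foxo1, Foxo3 and Foxp1 as transcription factors. They were represented by 35 probe sets that carry the symbol of 1 member alone, out of 45037 probe sets that are not array controls, and 31 of the 35 passed a filter on low signal.

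The cells came from spleens of 8-week-old GFPMYC/C57BL6 mice, in which GFP is fused to MYC at its own locus, 12 days after immunization with sheep red blood cells (SRBC). MYC-negative cells carried the same knock-in allele as MYC-positive cells and differed from them by the GFP gate alone, after both had been gated as binding much PNA (peanut agglutinin) and bearing much CD95. RNA from 4 MYC-positive and 4 MYC-negative samples, joined in 4 pairs by the sample descriptions, was amplified from 5 to 20 ng and hybridised to Affymetrix arrays. The protocol speaks of a sort for each mouse and the design text of pools, so the p-values measure the spread between these pairs, whether or not each is a separate animal.

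Class I PI3K joins a catalytic to a regulatory subunit and makes the lipid phosphatidylinositol trisphosphate at the membrane when the antigen receptor is engaged. The lipid recruits the kinase AKT, and phosphatases such as SHIP1 remove it. Active AKT phosphorylates FOXO proteins, which then leave the nucleus, so that transcription of FOXO target genes is high where PI3K activity is low. In the germinal centre FOXO1 is known as a factor of the dark zone, where the cells divide and mutate their antibody genes.

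As a check of the labels, Myc read 33.3, 156, 105 and 137 in the MYC-negative arrays of pairs 1 to 4 and 361, 932, 644 and 891 in the MYC-positive arrays. Signals were scaled array by array, with trimmed means from 495.3 to 496.9, but the median signal was 41.4 to 55.8 in MYC-negative and 28.2 to 39.7 in MYC-positive arrays. The MYC-positive array of pair 4 had the lowest median and stood farthest out on the first principal component. Of 7 B cell markers 6 were measured, with Cd79a, Cd79b and Ms4a1 among them, and 3 fell (Cd22, Cr2 and Blk). Their summed signal was 39764 to 46069 in MYC-negative and 29786 to 37409 in MYC-positive arrays. Of 7 GC markers measured, Fas and Mybl1 fell and 0 rose, with sums of 28101 to 40135 against 22297 to 28071. Of 10 macrophage markers that passed the filter 6 rose and 1 fell, and the list summed to 616 to 1473 in MYC-negative and 1220 to 8251 in MYC-positive arrays. C1qa, C1qb, C1qc, Lyz2, Csf1r and Vcam1 were 10.6- to 84.5-fold higher, each in 4 of 4 pairs, with many of their MYC-negative signals below the filter level of 18.7. Apoe, which fell, read 268 to 914 in MYC-negative and 74.9 to 215 in MYC-positive arrays. Of 7 T cell genes on the array, Cd3e, Cd3d, Cd3g, Cd4 and Cd28 lay under the filter, Lat fell and Cd8a did not pass the test. The list summed to 150 to 229 in MYC-negative and 66.5 to 129 in MYC-positive arrays. Naive and memory B cell markers (0 of 5 passing the test, 862 to 2300 against 943 to 1696), plasma cell markers (2 of 5 higher, 15933 to 28005 against 23945 to 30602) and granulocyte markers (0 of 1, 37.2 to 74.7 against 30.7 to 570) completed the check. The part of these shifts in the results below was not tested. In bulk samples, fewer cells of a type and less RNA per cell cannot be told apart.

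All 15 member probe sets that passed the test were lower in MYC-positive cells, and 0 were higher. Pik3cg, the catalytic subunit gene known for coupling to G protein-coupled receptors, was 4.76-fold lower by its brightest probe set. Foxo1 was 2.05-fold lower and Foxp1 1.81-fold lower by theirs. Pik3cd, Akt1 and Inpp5d did not pass on any probe set tested. The test was limma's moderated test with the pair as a block, adjusted by Benjamini-Hochberg over 27022 probe sets and called at an adjusted p under 0.05. Over all these probe sets 13.6% were called lower and 7.8% higher, against 15 and 0 of the 31 member probe sets. With 1 brightest probe set per gene, 4 of the 9 members were called lower and 0 higher, where 10.5% of 11754 genes were called lower and 10.7% higher. The members were chosen with earlier results of these data known, so the shares are set side by side as a description. The count of members called higher by limma was 0 in all 14 alternative analyses by brightest probe set and in all 12 by probe set, and 0 of the 31 were higher at an unadjusted p under 0.05. The groups did not overlap for 13 member probe sets, all lower in MYC-positive arrays, where 14.8% of all kept probe sets were lower and 8.27% higher without overlap. In 1 of the 13, Foxo3 1434831_a_at, the lowest MYC-negative signal was 1459 and the highest MYC-positive 1457, so they were almost level.

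**Figure D1:**
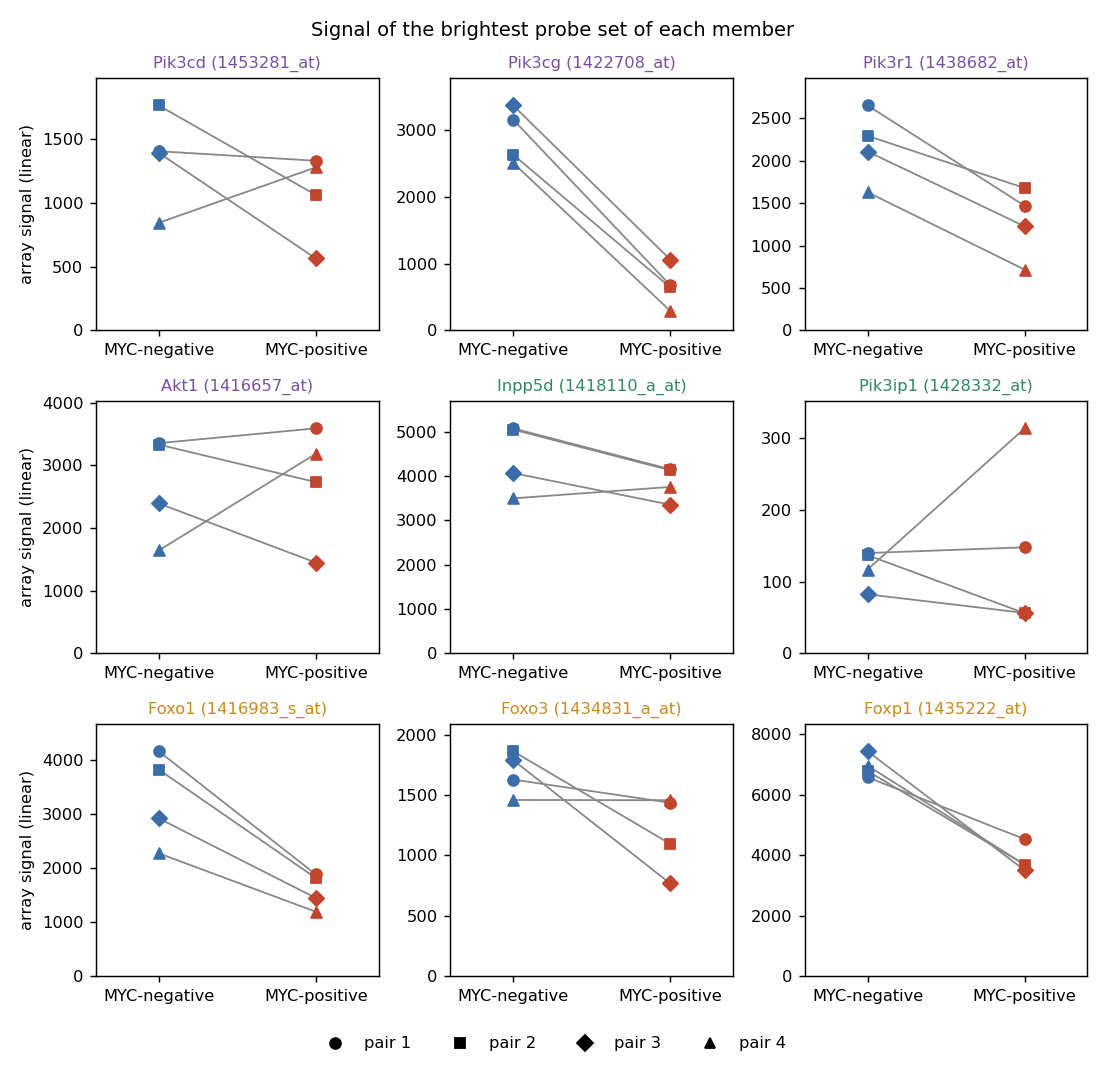
Array signal (linear axis from 0) of the brightest probe set of each of the 9 members in MYC-negative and MYC-positive arrays, with lines joining the 4 pairs and a marker shape for each pair. The lines of Pik3cg, Pik3r1, Foxo1 and Foxp1 go down in all 4 pairs, while those of Pik3cd, Akt1, Inpp5d and Pik3ip1 go both ways. Foxo3 goes down in pairs 1 to 3 and is level in pair 4.

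The sequences before the start sites of a gene that fell most among the kinases, of Foxo1, and of Akt1, which did not pass the test, are shown so that the search for MYC and forkhead letters can be followed. They are from RefSeq on build GRCm38.p6, 5′ to 3′ on the gene's own strand, and end at the annotated start of the gene. Capitals mark the forkhead letters TGTTTAC or their reverse complement. The Foxo1 stretch is chr3:52268087-52268336 on the plus strand, the Pik3cg stretch chr12:32208678-32208909 on the minus strand, and the Akt1 stretch chr12:112674885-112675134 on the minus strand. The short Pik3cg stretch is chr12:32208546-32208572, before a second annotated start.
Foxo1: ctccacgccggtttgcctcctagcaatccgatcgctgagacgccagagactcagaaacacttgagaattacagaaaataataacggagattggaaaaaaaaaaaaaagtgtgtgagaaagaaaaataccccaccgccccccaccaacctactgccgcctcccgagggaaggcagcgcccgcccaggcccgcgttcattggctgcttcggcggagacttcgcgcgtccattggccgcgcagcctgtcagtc
Pik3cg: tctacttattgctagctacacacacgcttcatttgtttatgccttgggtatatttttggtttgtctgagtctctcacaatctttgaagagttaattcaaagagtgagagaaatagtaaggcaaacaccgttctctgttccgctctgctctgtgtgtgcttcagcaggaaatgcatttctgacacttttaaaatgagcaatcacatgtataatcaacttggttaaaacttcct
Pik3cg, second start: ttttcctaaaGTAAACAaatgatcctc
Akt1: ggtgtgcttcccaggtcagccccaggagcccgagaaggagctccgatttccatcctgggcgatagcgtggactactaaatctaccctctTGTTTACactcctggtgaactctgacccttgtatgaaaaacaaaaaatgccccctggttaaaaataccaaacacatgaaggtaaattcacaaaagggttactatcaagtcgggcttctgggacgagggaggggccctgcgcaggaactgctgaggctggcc

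All 9 members had at least 1 listed start, 16 in all, and the 250 bases before each were searched on both strands. The E-box letters CACGTG, which MYC and MAX can bind, were in 0 of these 16 windows, where 6.02% of 32851 windows of all genes hold them. The forkhead letters TGTTTAC were in 2 of 16, ending 154 bases before the Akt1 start and 85 bases before the second Pik3cg start, against 3.17% of all windows. The motifs do not overlap each other, some windows of 1 gene do, and a match in letters is a description and not a binding site.

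Among the kinase genes, Pik3cg had the largest difference and both of its probe sets fell. The brightest, 1422708_at, read 3162, 2636, 3374 and 2513 in the MYC-negative arrays of pairs 1 to 4 and 679, 647, 1063 and 294 in the MYC-positive arrays. The lowest MYC-negative signal was above the highest MYC-positive one, so the groups did not overlap. The log2 difference was -2.25 (SE 0.24, n = 4 pairs, limma adjusted p = 0.0019). The other probe set, 1422707_at, read 1425, 1535, 1103 and 626 against 381, 405, 243 and 256 and differed by -1.82 (SE 0.23, limma adjusted p = 0.0029). Both calls held in every alternative analysis listed in the processing notes, with differences from -2.45 to -1.38.

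Pik3r1, which encodes the main regulatory subunits of class I PI3K, was lower on average on all 4 of its probe sets, and 2 passed the test. Probe set 1438682_at read 2650, 2292, 2107 and 1628 in MYC-negative arrays of pairs 1 to 4 and 1468, 1677, 1226 and 716 in their MYC-positive partners. Each pair went down, but the ranges overlapped at the MYC-negative array of pair 4. The log2 difference was -0.82 (SE 0.18, limma adjusted p = 0.017), and for 1425515_at it was -1.04 (SE 0.26, adjusted p = 0.026). Probe sets 1425514_at and 1451737_at were at -0.49 and -0.68, with adjusted p of 0.13 and 0.22. The call of 1438682_at ended without the pair as a block (adjusted p = 0.069), without pair 1 (0.10), without pair 2 (0.053) and after median centring, where it was at -0.38. The call of 1425515_at ended without pair 1 (adjusted p = 0.14), without pair 3 (0.063) and after median centring, where it was at -0.60.

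Pik3cd, whose product is the catalytic subunit that dominates in B cells, did not pass on any of 4 probe sets tested. The brightest, 1453281_at, read 1406, 1765, 1393 and 844 in MYC-negative and 1331, 1063, 565 and 1279 in MYC-positive arrays of pairs 1 to 4. It was lower in 3 pairs and higher in pair 4, with overlapping ranges. The log2 difference was -0.38 with a 95% interval from -1.06 to 0.30 (limma adjusted p = 0.39), and it turned to 0.06 after median centring. Without pair 4 it was at -0.70 and passed (adjusted p = 0.030). Probe set 1446770_at was dimmer, at 104 to 236 in MYC-negative and 69.7 to 102 in MYC-positive arrays without overlap, and at -0.87 (adjusted p = 0.12). It too passed without pair 4, at -1.07 (adjusted p = 0.038). The other probe sets tested were at -0.62 and -0.47, and 2 more lay under the filter, with signals of at most 16.4.

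Akt1, the gene of the kinase that carries the PI3K signal to FOXO proteins, showed no direction on its bright probe set. Probe set 1416657_at read 3353, 3330, 2392 and 1641 in MYC-negative and 3589, 2732, 1448 and 3183 in MYC-positive arrays. It was higher in pairs 1 and 4 and lower in pairs 2 and 3. The log2 difference was 0.01 with a 95% interval from -0.57 to 0.60 (limma adjusted p = 0.98), so that changes of up to about that size are not shown to be absent. The difference was 0.45 after median centring (adjusted p = 0.25) and -0.3 without pair 4 (0.21). As the mean over the Akt1 probe sets it was -0.37 (adjusted p = 0.34). The dimmer probe sets 1425711_a_at and 1442759_at were at -0.52 and -0.59 (adjusted p = 0.29 and 0.41), and a further one lay under the filter.

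The brakes gave 1 call in 4 probe sets, where 13.6% of all probe sets were called lower. By brightest probe set 0 of the 2 brake genes were called. Inpp5d encodes SHIP1, the phosphatase that takes a phosphate from the PI3K lipid product, and its bright probe set 1418110_a_at read 5076, 5049, 4067 and 3497 in MYC-negative and 4153, 4130, 3354 and 3754 in MYC-positive arrays. The ranges overlapped, and the MYC-positive array was lower in 3 pairs and higher in pair 4. The log2 difference was -0.19 with a 95% interval from -0.50 to 0.12 (limma adjusted p = 0.35), and it was 0.25 after median centring. The dimmer probe set 1424195_a_at was lower in 4 of 4 pairs, at -0.75 (SE 0.33, adjusted p = 0.13).

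Pik3ip1 encodes a membrane protein that holds back class I PI3K, and 1 of its 2 probe sets passed the test. The difference between the probe sets was not tested. Probe set 1428332_at read 140, 137, 82.4 and 117 in MYC-negative and 148, 56.1, 56.4 and 314 in MYC-positive arrays. The highest and the lowest of the 8 values were both in MYC-positive cells, and the difference was -0.08 (95% interval -1.15 to 0.99, limma adjusted p = 0.92), with 0.36 after median centring and 0.30 after quantile normalization. The mean over both probe sets was at -1.19 and passed (adjusted p = 0.047). Probe set 1439087_a_at read 84.4, 81.2, 45.0 and 65.2 against 44.2, 48.0, 5.44 and 3.04. It was lower in 4 of 4 pairs, at -2.29 (SE 0.68, adjusted p = 0.046), with the lowest signals of pairs 3 and 4 below the filter level of 18.7. This call ended in 9 of 11 alternatives, with adjusted p up to 0.13, among them the leaving out of any 1 of the 4 pairs. Its difference was -1.58 without pair 4 and -1.24 with log2(signal + 16).

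**Figure D2:**
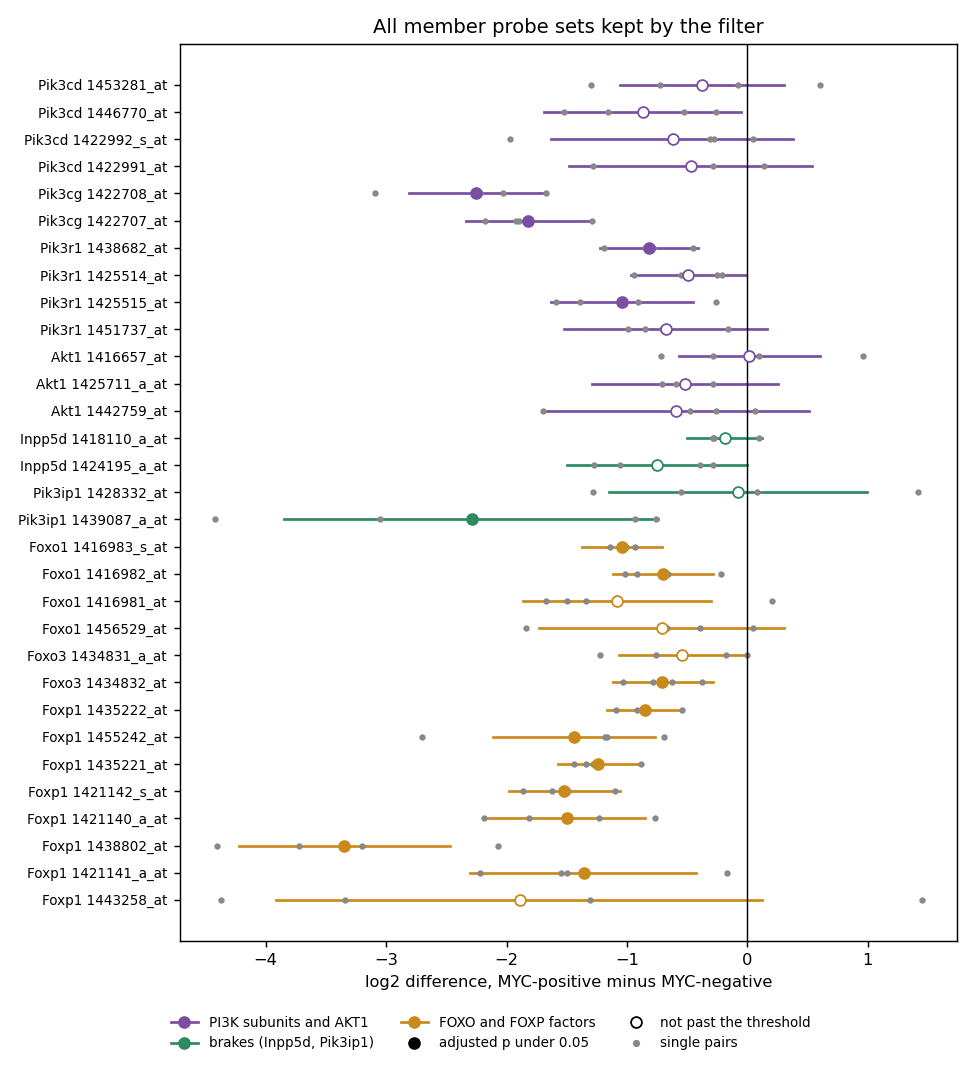
Log2 difference of MYC-positive minus MYC-negative for the 31 member probe sets kept by the filter, with coloured points for the estimate, lines for the 95% interval and grey points for the 4 single pairs. Filled points passed the test at an adjusted p under 0.05, and all filled points lie below 0. Of the 15, 10 belong to Foxo1, Foxo3 and Foxp1, and 7 of these to Foxp1 alone.

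The FOXO and FOXP factors held 10 of the 15 calls, on 14 probe sets tested, where 13.6% of all probe sets were called lower. Of these 10 calls 7 came from Foxp1, which has 8 probe sets. By brightest probe set, 2 of the 3 factor genes and 2 of the 4 genes on the kinase side were called lower. Over all genes 10.5% were called lower. Foxo1 was lower on average on all 4 probe sets, and its brightest, 1416983_s_at, read 4159, 3821, 2919 and 2273 in MYC-negative and 1883, 1817, 1448 and 1193 in MYC-positive arrays of pairs 1 to 4. The groups did not overlap, and the difference was close to the same in each pair, from -1.14 to -0.93. The log2 difference was -1.04 (SE 0.14, n = 4 pairs, limma adjusted p = 0.0040). Probe set 1416982_at read 3099, 2946, 2033 and 1891 against 1533, 1558, 1289 and 1627, also without overlap, and differed by -0.70 (SE 0.18, adjusted p = 0.030). Probe set 1416981_at was at -1.08 (adjusted p = 0.056) and lower in 3 of 4 pairs, and without pair 4 it was at -1.50 and passed (adjusted p = 0.00047). It also passed with the filter at the 60th percentile (adjusted p = 0.044) and with log2(signal + 16) (0.038). The dim 1456529_at was at -0.71 (adjusted p = 0.28).
The call of 1416983_s_at ended without pair 1 (adjusted p = 0.051), and after median centring it was at -0.60 and passed. The call of 1416982_at ended without pair 1 (0.16), pair 2 (0.14) or pair 3 (0.069) and after median centring, where it was at -0.26.

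Foxo3, the gene of a second FOXO factor with the same AKT regulation, was lower on both probe sets tested, and 1 passed. Probe set 1434832_at read 1671, 1569, 1470 and 1378 in MYC-negative and 819, 912, 950 and 1059 in MYC-positive arrays. The groups did not overlap, and the log2 difference was -0.71 (SE 0.18, limma adjusted p = 0.030). The other, 1434831_a_at, read 1628, 1862, 1789 and 1459 against 1436, 1096, 768 and 1457, so that pair 4 was level. It was at -0.54 (SE 0.23, adjusted p = 0.13), without pair 4 at -0.72 with a pass (adjusted p = 0.018), and as the mean of both at -0.62 with a pass (adjusted p = 0.032). The call of 1434832_at ended without pair 1 (adjusted p = 0.16), pair 2 (0.13) or pair 3 (0.072) and after median centring, where it was at -0.27.

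Foxp1, a forkhead factor known for its role in B cell development and in holding back the GC programme, was lower on all 8 of its probe sets, and 7 passed. The brightest, 1435222_at, read 6584, 6790, 7444 and 6967 in MYC-negative and 4536, 3695, 3507 and 3691 in MYC-positive arrays. MYC-negative arrays were close to each other and all above the MYC-positive ones, and the log2 difference was -0.85 (SE 0.14, limma adjusted p = 0.0065). Probe set 1435221_at read 5952, 6662, 5183 and 4333 against 3231, 2450, 2141 and 1709 and differed by -1.24 (SE 0.15, adjusted p = 0.0025). Probe set 1421142_s_at read 1734, 1727, 1508 and 1093 against 566, 615, 414 and 511 and differed by -1.52 (SE 0.20, adjusted p = 0.0036). Neither of these overlapped between the groups.

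The size of the Foxp1 difference varied among its probe sets. The largest was at 1438802_at, which read 1408, 1073, 1086 and 485 in MYC-negative and 66.8, 256, 118 and 36.9 in MYC-positive arrays. It was 10.2-fold lower, at -3.35 on the log2 scale with a 95% interval from -4.22 to -2.47 (limma adjusted p = 0.0022). That interval lies apart from the interval of -1.17 to -0.54 of the brightest probe set, and the difference between the probe sets was not tested. The calls of 1455242_at (-1.44), 1421140_a_at (-1.50) and 1421141_a_at (-1.36) had adjusted p of 0.014, 0.011 and 0.047. The dim 1443258_at was at -1.89 (adjusted p = 0.16), higher in pair 4 alone, and without pair 4 at -3.01 with a pass (adjusted p = 0.0041).
The calls of 1435221_at, 1421142_s_at and 1438802_at held in every alternative, and that of 1435222_at ended after median centring (-0.41, adjusted p = 0.095). The mean over all Foxp1 probe sets was at -1.64 and passed. Without pair 1 the calls of 1455242_at (0.079), 1421140_a_at (0.068) and 1421141_a_at (0.19) ended, without pair 2 those of 1421140_a_at (0.060) and 1421141_a_at (0.15), and without pair 3 that of 1421141_a_at (0.12), which also ended after quantile normalization and after median centring (both 0.14) and without a filter (0.067).

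The differences depended on how the arrays were scaled. The median over all genes was -0.06 for the deposited scaling, 0.09 with quantile-normalized arrays and 0.38 when each array was centred on its own median, while the median of the 9 members was -0.54, -0.51 and -0.10. Of all called probe sets, 63.5%, 49.5% and 24.7% were lower in MYC-positive cells in the same order. Pik3cg and Foxo1 were called lower under all 3 scalings by their brightest probe sets, and Pik3r1 and Foxp1 under the first 2. With eBayes run without an intensity trend, 8 of the 15 calls ended, those of both Pik3r1 probe sets, Pik3ip1 1439087_a_at, Foxo1 1416982_at, Foxo3 1434832_at and Foxp1 1435222_at, 1455242_at and 1421141_a_at, with adjusted p from 0.055 to 0.098.

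**Figure D3:**
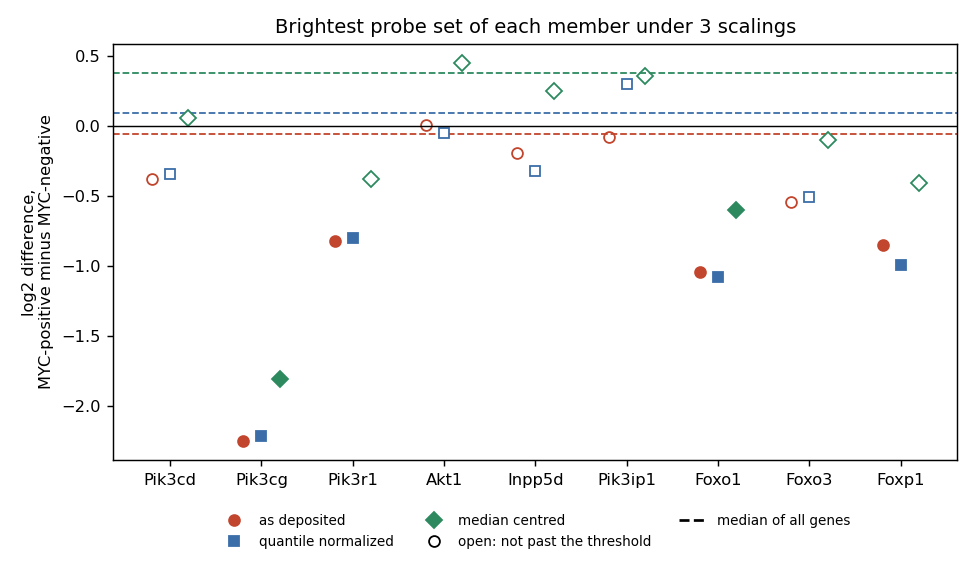
Log2 difference of MYC-positive minus MYC-negative for the brightest probe set of each of the 9 members, on the deposited scale, quantile-normalized and median-centred; filled markers passed the test, open ones did not, and dashed lines give the median of all genes under each scaling. Median centring raises all members together with the median of all genes, to 0.38, and leaves Pik3cg at -1.81 and Foxo1 at -0.60 past the threshold.

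Other genes of the pathway were taken from lists of kinases and adaptors, brakes and forkhead factors, also chosen with earlier results of these data known. Over all genes tested, 10.5% were called lower and 10.7% higher. Of 21 other kinase and adaptor genes measured, 5 fell, 0 rose and 16 did not pass, with a median of -0.48 where all genes had -0.06. The 5 were Rictor, which encodes the defining subunit of mTORC2, the kinase complex that phosphorylates AKT (-1.15, SE 0.30), the antigen receptor kinase genes Btk (-0.82, lower in 3 of 4 pairs) and Syk (-0.71), Gsk3b, a substrate kinase of AKT (-0.74), and Sgk3, a relative of AKT (-0.58). Their limma adjusted p lay between 0.018 and 0.048. The mean over Sgk3 probe sets was at -0.62 and did not pass (adjusted p = 0.058). Akt2 did not pass on any of 3 probe sets, at 0.12 on the brightest (adjusted p = 0.82). The count called lower was 0 after median centring, without the trend, without pair 1 and without pair 2, 2 without pair 3 and 3 without the replicate block.

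Of 17 other brake genes measured, 5 fell, 0 rose and 12 did not pass, with a median of -0.32. The share called was 29.4%, all lower, where 10.5% of all genes were called lower. Inpp4a and Inpp4b, which encode phosphatases acting further down the same lipid route, were at -0.96 (SE 0.15, limma adjusted p = 0.0056) and -3.22 (SE 0.64, adjusted p = 0.013). Inpp4b read 137, 106, 87.5 and 112 in MYC-negative and 3.52, 20.6, 29.6 and 8.68 in MYC-positive arrays, so its fold is poorly determined on the low side, where 2 values lay under the filter level. It was at -2.06 with log2(signal + 16), and without pair 1 it was at -2.54 and did not pass (adjusted p = 0.070). Tsc1, a brake on mTORC1 (-0.73), and the inhibitory receptor genes Cd22 (-0.63) and Fcgr2b (-0.57) also fell, with adjusted p between 0.021 and 0.046. The mean over Tsc1 probe sets was at -1 and did not pass (adjusted p = 0.13). Without pair 1 the count of brakes called lower was 0, it was 2 without pair 2, without pair 3, without the replicate block and without the trend, and it was 1 after median centring, where 2 were called higher. Without pair 4, 1 was called higher.

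Of 11 other forkhead factor genes measured, 2 fell, 0 rose and 9 did not pass, with a median of -0.06, the same as over all genes. The share called was 18.2%, all lower, where 10.5% of all genes were called lower. Foxj2 read 1947, 1413, 1587 and 1653 in MYC-negative and 817, 754, 865 and 597 in MYC-positive arrays and differed by -1.13 (SE 0.19, limma adjusted p = 0.0074). Foxo4, another FOXO gene, read 1219, 1012, 929 and 805 against 756, 798, 447 and 385 on its brightest probe set, at -0.79 (SE 0.21, adjusted p = 0.033). Neither overlapped between the groups. The other Foxo4 probe set, with signals of 4.70 to 35.0, was at 0.86 and did not pass (adjusted p = 0.31), and the mean of both turned to 0.04. The mean over Foxj2 probe sets was at -0.67 and did not pass (adjusted p = 0.13). Without pair 1 neither gene passed, and without pair 2 or pair 3 Foxo4 did not (adjusted p = 0.077 and 0.11), nor did it after median centring (-0.35), without the replicate block (0.084) or without the trend (0.077). Of the list, 1 gene was called higher after median centring and 1 without pair 4.

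Genes known as FOXO targets in lymphocytes or other cells were lower for 13 of 26 measured, higher for 0 and not past the threshold for 13. Their median was -0.90, and of all genes 10.5% were called lower and 10.7% higher. The list was chosen with earlier results of these data known, so these shares are a description and not a test. Among the called genes, the 5 with the largest differences were Insr, the insulin receptor gene (-2.35, SE 0.51), Bach2, a repressor gene of plasma cell differentiation (-2.02, SE 0.21), Ccng2, which encodes the cyclin G2 known from resting cells (-1.49, SE 0.14), Tob1, an antiproliferative gene (-1.36, SE 0.21), and Txnip, a gene that restrains glucose uptake (-1.32, SE 0.26). Their limma adjusted p lay between 0.0014 and 0.017. Ccng2 read 4427, 3970, 5081 and 6313 in MYC-negative and 1677, 1386, 1642 and 2403 in MYC-positive arrays, and its second probe set was at -2.27. The cell cycle inhibitor gene Cdkn1b was at -0.73 (adjusted p = 0.034), and its second probe set was at -0.45, higher in pair 4, and did not pass (adjusted p = 0.46). Insr read 9.26 in the MYC-positive array of pair 4, below the filter level of 18.7, and without pair 4 it was at -1.67, a smaller difference than that of Bach2 there (-1.74). Bach2, Ccng2 and Tob1 held their calls in every alternative.

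Klf2, the FOXO target of lymphocyte trafficking, read 301, 480, 279 and 162 in MYC-negative and 47.2, 119, 69.6 and 205 in MYC-positive arrays. It was lower in pairs 1 to 3 and higher in pair 4, at -1.59 (SE 0.49, limma adjusted p = 0.052), and without pair 4 it was at -2.23 and passed (adjusted p = 0.00040). With all pairs it passed with the filter at the 60th percentile (adjusted p = 0.037), with log2(signal + 16) (0.033), with 1 probe set per gene (0.042) and with the mean over probe sets (0.040). Gabarapl1, an autophagy gene named here after its values were seen, went the other way, at 28.5, 69.1, 111 and 38.2 in MYC-negative and 180, 220, 199 and 52.8 in MYC-positive arrays. It was higher in 4 of 4 pairs with overlapping ranges, at 1.41 (SE 0.44), and did not pass (adjusted p = 0.056). Il7r lay under the filter on both probe sets, with signals of at most 14.2. Over the list, the count called lower was 6 without pair 1, 6 without pair 2, 5 without the trend and 7 after median centring, where 3 were called higher. The count called higher was 2 without pair 4, 2 with the mean over probe sets and 1 each with quantile-normalized arrays, the filter at the 60th percentile, log2(signal + 16) and 1 probe set per gene. The call of Insr ended without pair 1 (adjusted p = 0.075), without the replicate block (0.054) and without the trend (0.053), that of Txnip without pair 1 (0.083), pair 2 (0.059) or the trend (0.064), and that of Cdkn1b without pair 1 (0.15), pair 2 (0.16) or pair 3 (0.082) and after median centring, where it was at -0.29. The Cdkn1b call also ended with quantile-normalized arrays (0.067), without the trend (0.070) and with the mean over probe sets (-0.59, adjusted p = 0.13).

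**Figure D4:**
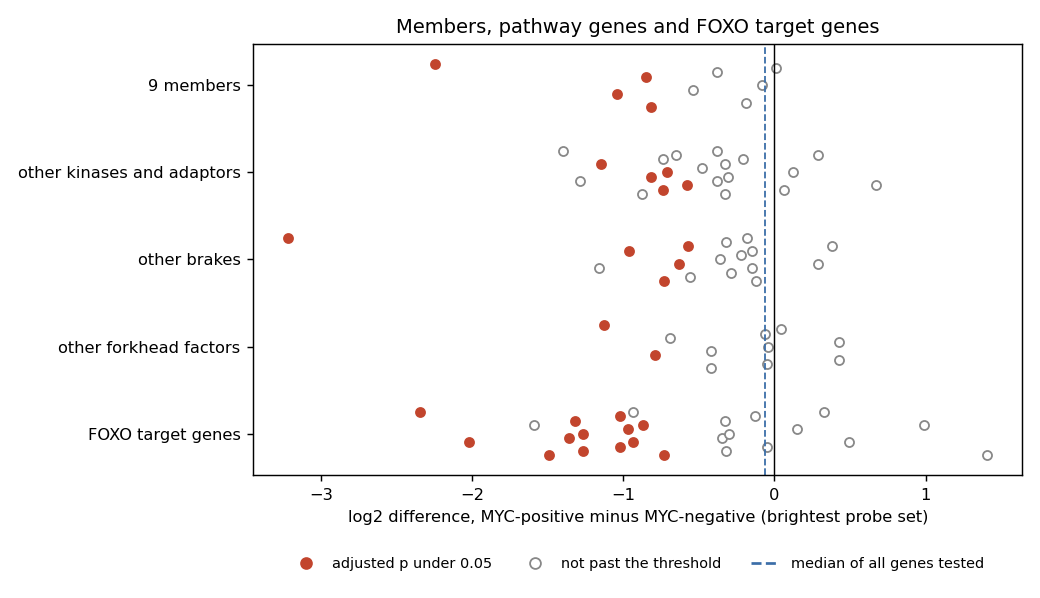
Log2 difference of MYC-positive minus MYC-negative for the brightest probe set of each gene in 5 rows, the 9 members, other kinases and adaptors, other brakes, other forkhead factors and FOXO target genes; vertical spread within a row only separates points. Filled points passed the test and all lie left of 0, and the dashed line is the median of all genes tested, at -0.06.

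The genes whose signal was most like that of Foxo1 over the 8 arrays were Tgfbr2, a receptor gene of TGF-beta (Pearson r = 0.996), Nckap1l (0.9953), Sfi1 (0.9951), Rhbdf2 (0.9856) and Zfp688 (0.985). All 5 were themselves called lower, at log2 differences from -1.87 to -0.78, and the 8 points share the split into fractions, so r is given as a description. Among the members, the same measure was 0.94 for Pik3r1, 0.87 for Pik3cg, 0.85 for Foxp1, 0.79 for Inpp5d, 0.66 for Foxo3, 0.56 for Pik3cd, 0.30 for Akt1 and -0.052 for Pik3ip1.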

How the data were processed

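RNA of 4 MYC-positive and 4 MYC-negative samples was measured on 8 arrays. Each deposited value is the intensity of a probe set, linear and scaled within its array, and MAS5 is named in the submitters' processing notes, with its version and scaling target not given in the sources used here. No detection calls were used. Genes were taken from the platform annotation, which gave 34945 probe sets 1 gene, 932 several and left 9160 unnamed here. RefSeq identifiers changed 0 symbols.

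A floor of 1 was put on the deposited intensity before log2. Probe sets with a mean above the 40th percentile (a signal of 18.7) were kept. limma 3.58.1 in R 4.3.3 fitted group and pair (lmFit, eBayes with an intensity trend, 3 residual degrees of freedom), with 2-sided p-values adjusted over 27022 probe sets. For gene counts the kept probe set with the highest mean stood for a gene. Pairs came from the sample descriptions, not from the replicate numbers in the titles. Deviations of paired arrays from their group means correlated at 0.26, 0.17, 0.088 and 0.12. Alternatives were quantile normalization, median centring, no filter, a filter at the 60th percentile, log2(signal + 16), no replicate block, eBayes without trend, robust eBayes, leaving out each pair, 1 probe set per gene and the mean over probe sets. With 4 pairs the smallest p of an exact sign-flip test is 0.125, so none was used. The number of arrays limits the precision.

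The members and lists were chosen with earlier results of these data known. Named genes were all members, the called genes of each list where 5 or fewer were called and otherwise the 5 largest with the same sign in 4 pairs, a few genes fixed by name, and the 5 genes most like Foxo1. Some list entries are not analysed here. On simulated arrays with 50 of 27022 probe sets changed by each size, the same fit recovered 76% of those raised by 2, 22% raised by 1, 18% lowered by 1 and 66% lowered by 2 on the log2 scale. Far fewer probe sets changed there than were called in the data (21.4%). The Benjamini-Hochberg adjustment is stricter when fewer change, so these rates do not carry over to the comparison reported here.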

Additional observations from a re-analysis of the deposited data

Results flagged for a closer look

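In groups of 4 arrays, 1 value lay far from the other 3 for 2 of 62 combinations of member probe set and fraction, where chance gives about 3.1. Foxp1 probe set 1455242_at read 1120 in the MYC-positive array of pair 4, and the nearest of the other 3 was 2735. Pik3cd probe set 1422991_at read 17.7 in the MYC-positive array of pair 3, and the nearest of the others was 37.7.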

How the results depend on the processing

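Over all probe sets, 2109 were called higher and 3675 lower. Median centring gave 5038 and 1657, eBayes without trend 894 and 1892, and leaving out 1 pair from 342 to 2854 and from 408 to 5303. Without the replicate block, that is with the paired design left out, 2309 were called lower. Of the member probe sets 15 were called lower, with 8 after median centring, 7 without trend and 6 (without pair 1) to 19 (without pair 4) with a pair left out. Of the 9 members 4 were called lower by their brightest probe set, with 2 after median centring, 2 without trend and 2 to 6 with a pair left out. Averaging its probe sets turned Foxo4 from -0.79 to 0.04, because its dim probe set was at 0.86. Why the probe sets differ was not tested. A fit without 1 pair has 2 residual degrees of freedom. Signals below the filter level of 18.7, as in Pik3ip1, Inpp4b and Insr, give differences of uncertain size. Of the single values under alternatives, 535 kept direction and side of the threshold, 115 lost the threshold, 14 gained it, 1 called value turned and 11 values not past the threshold turned sign.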
